A study of Mus musculus with 12 samples.

Results

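Atf3, Sox11, Klf6, Gap43, Basp1, Stmn2, Flrt3, Ecel1 and Sprr1a are genes of the neuronal response to axon injury and of axon regrowth. The 9 genes were selected by symbol, as a list chosen on FPKM values of these same 12 libraries, so their own levels are given as a description and carry no test. They are 9 of 17416 genes listed in both deposited tables, 1 table per model, with 18223 genes in the H-Ras(G12V) table and 17800 in the etoposide table. FPKM scales the fragments of a gene by its transcript length and by the size of the library, so levels of different genes can be compared per length.

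When the axon of a peripheral neuron is cut, stress kinases of the DLK and JNK pathway and calcium signals reach the nucleus and switch on a set of transcription factors, among them Atf3, Jun, Sox11 and Klf6. These factors are tied to a regrowth programme whose products include growth cone proteins such as Gap43, the microtubule regulator Stmn2 and the small proline-rich protein Sprr1a. Most neurons of the adult central nervous system mount this programme weakly, while young neurons hold high growth cone gene levels as part of normal outgrowth.

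Primary neurons of C57BL/6 mice were collected on day 10, and mRNA was enriched with oligo-dT beads before sequencing. As the study's model of oncogene-induced senescence, neurons over-expressed H-Ras(G12V), a Ras GTPase locked in its active state, from an adeno-associated virus (AAV), against wild-type controls with the fluorescent protein mCherry. As its model of stress-induced senescence, wild-type neurons received etoposide, a topoisomerase II poison that breaks DNA, against wild-type controls with the solvent DMSO. There were 3 libraries for each of the 4 groups. The promoter of the virus, the species of the transgene, the etoposide dose, the brain region and the age of the donor mice are not given in the labels, nor whether the 3 libraries of a group are separate cultures. P-values therefore cover the variation among these libraries alone, and that variation may be technical. For the etoposide and DMSO libraries the treatment tag contradicts the title. Groups follow the titles, the library names and the column names, and every etoposide direction would turn round if the tags were right.

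Some libraries stood apart from their group, and results that rest on them are given with and without them. The Spearman rho across genes was 0.993 between mCherry libraries 1 and 2, but 0.965 and 0.963 between mCherry library 3 and either of them, no closer than its 0.963 to 0.968 to H-Ras(G12V). For etoposide library 3 rho was 0.921 and 0.946 to the others of its group and 0.969 to 0.986 to DMSO. Depth, estimated roughly from the steps of low FPKM values, was 15800000 to 17000000 fragments per library of the first table and 25600000 to 31400000 per library of the other. Between 11829 and 12728 genes reached 1 FPKM in a library. The neuron label held to the extent that 9 of 9 neuron markers were detected, but markers of astrocytes, progenitors and the oligodendrocyte lineage were also high. In bulk RNA, fewer cells of a type and less RNA per cell cannot be told apart.

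Promoter windows, from 250 bases before to 50 after the start site, were matched in RefSeq on build GRCm38.p6 for 7 of the 9 genes, all but Gap43 and Stmn2. The 3 windows shown belong to the genes that were high in every H-Ras(G12V) library relative to every mCherry library, and capitals mark matches on either strand to the AP-1 site TGANTCA, the cyclic AMP response element TGACGTCA, the STAT site TTCNNNGAA and the GC box GGGCGG. Sprr1a lies on the minus strand at chr3:92485832-92486131, Ecel1 on the minus strand at chr1:87156307-87156606 and Atf3 on the minus strand at chr1:191183284-191183583.
Sprr1a: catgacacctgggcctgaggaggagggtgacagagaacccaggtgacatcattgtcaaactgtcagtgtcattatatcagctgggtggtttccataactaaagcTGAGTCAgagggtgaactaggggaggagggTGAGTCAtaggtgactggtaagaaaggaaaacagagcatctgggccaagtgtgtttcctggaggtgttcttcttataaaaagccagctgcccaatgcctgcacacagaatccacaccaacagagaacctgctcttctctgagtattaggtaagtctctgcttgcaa
Ecel1: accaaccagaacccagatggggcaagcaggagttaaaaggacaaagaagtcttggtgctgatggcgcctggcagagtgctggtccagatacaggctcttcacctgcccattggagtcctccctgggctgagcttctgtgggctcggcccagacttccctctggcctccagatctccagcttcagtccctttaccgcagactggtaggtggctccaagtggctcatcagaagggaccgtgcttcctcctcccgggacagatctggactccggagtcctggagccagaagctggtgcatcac
Atf3: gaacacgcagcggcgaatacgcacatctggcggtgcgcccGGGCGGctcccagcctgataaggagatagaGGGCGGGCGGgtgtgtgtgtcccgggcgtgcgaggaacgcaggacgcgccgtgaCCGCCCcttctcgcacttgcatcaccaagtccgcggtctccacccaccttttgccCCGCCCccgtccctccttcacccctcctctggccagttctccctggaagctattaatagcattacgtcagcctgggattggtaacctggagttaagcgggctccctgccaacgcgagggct

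The Sprr1a window holds 2 copies of the AP-1 match TGAGTCA, with first bases at -146 and -116 from the start site. AP-1 is the dimer that Jun and related factors, Atf3 among them, form on DNA. Of 32851 windows of 300 bases in the table, 7.81% hold at least 1 AP-1 match and 0.46% hold 2 or more. The Ecel1 window holds no match to these 4 motifs, and the Atf3 window holds 5 GC boxes, of which 2 overlap. GC boxes are common, with at least 1 in 35.7% of windows. No matched window of the other 4 genes (Sox11, Klf6, Basp1 and Flrt3) holds an AP-1, cyclic AMP or STAT match, against 1.79% of windows for the cyclic AMP element and 8.3% for the STAT site. The E-box CANNTG, searched too but not put in capitals, occurs 6 times in the Sprr1a window, 3 times in the Ecel1 window and 2 times in the Atf3 window, and 72.3% of windows hold it. A match is a stretch of letters and does not show that a factor binds there.

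The 3 transcription factors took different courses in the H-Ras(G12V) model. Atf3, a stress-induced factor of the ATF and CREB family and a standard marker of axotomised neurons, had 7.19, 8.60 and 5.49 FPKM in H-Ras(G12V) libraries 1, 2 and 3, against 1.43, 1.78 and 4.69 FPKM in mCherry libraries 1, 2 and 3. Every H-Ras(G12V) library lay above every mCherry library, with mCherry library 3 close below. The log2 fold change, which here and throughout is on the log2(FPKM + 1) scale and understates the change of low genes, was 1.24 ± 0.33 (SE), and 1.62 without mCherry library 3.

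Sox11, a factor of immature neurons that is switched on again in injured sensory neurons, had 11.3, 8.92 and 13.2 FPKM in the H-Ras(G12V) libraries and 34.8, 39.8 and 5.30 FPKM in the mCherry libraries. The groups overlapped because mCherry library 3 lay below all others, at 0.142 of the mean of mCherry libraries 1 and 2. The log2 fold change was -0.80 ± 0.67 (SE), and -1.67 without mCherry library 3. Klf6, a Krüppel-like factor that promotes neurite growth, had 26.3, 19.2 and 25.6 FPKM in the H-Ras(G12V) libraries and 25.8, 27.1 and 18.4 FPKM in the mCherry libraries. The groups overlapped almost fully, with a log2 fold change of 0.0030 ± 0.19 (SE) whose sign differed in 5 of 16 alternative settings.

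**Figure D1:**
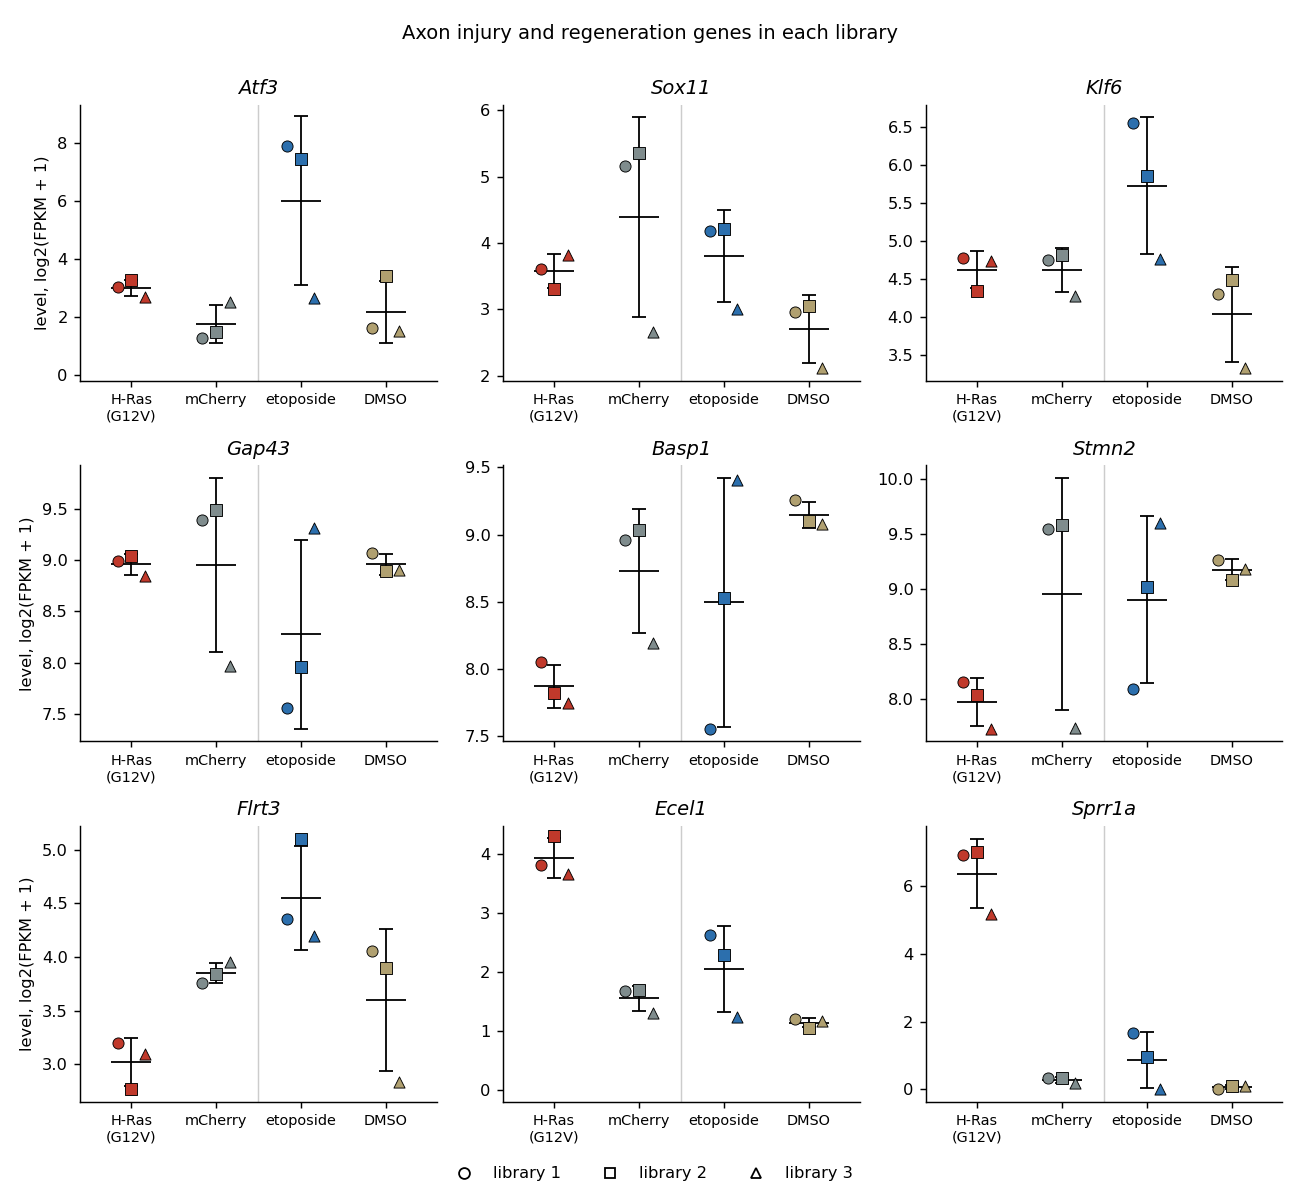
Level of each of the 9 genes as log2(FPKM + 1) in the 12 libraries, by group, with a bar at the group mean and whiskers of 1 SD (n = 3); the 2 pairs of groups come from separately normalised tables. Sprr1a and Ecel1 are high in all 3 H-Ras(G12V) libraries, Atf3 in etoposide libraries 1 and 2, and the triangles of mCherry and etoposide often lie away from the other libraries of their group.

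The growth cone genes were lower or level with H-Ras(G12V). Basp1, a membrane protein of the growth cone related in function to Gap43, had 264, 225 and 213 FPKM in the H-Ras(G12V) libraries and 496, 524 and 292 FPKM in the mCherry libraries. The groups did not overlap, the H-Ras(G12V) mean was 0.535 of the mCherry mean, and the log2 fold change was -0.86 ± 0.24 (SE), or -1.13 without mCherry library 3. Stmn2, a tubulin-binding protein needed for axon maintenance and regrowth, had 283, 262 and 211 FPKM in the H-Ras(G12V) libraries and 747, 765 and 212 FPKM in the mCherry libraries. The level in mCherry library 3 lay between those of H-Ras(G12V) libraries 2 and 3, so the groups overlapped. The log2 fold change was -0.98 ± 0.48 (SE), and -1.59 without mCherry library 3.

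Gap43, the classical growth cone phosphoprotein, had 508, 524 and 459 FPKM in the H-Ras(G12V) libraries and 672, 716 and 250 FPKM in the mCherry libraries. H-Ras(G12V) levels sat between mCherry library 3 below and mCherry libraries 1 and 2 above. The log2 fold change was 0.0064 ± 0.39 (SE) over all libraries and -0.48 without mCherry library 3, and its sign differed in 5 of 16 alternative settings. Thus among the 3 growth cone genes Basp1 was lower in every H-Ras(G12V) library than in every mCherry library, and Stmn2 and Gap43 depended on mCherry library 3.

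The cell surface genes moved apart. Ecel1, an endopeptidase-like membrane protein that nerve injury induces in motor and sensory neurons, had 13.1, 18.9 and 11.7 FPKM in the H-Ras(G12V) libraries and 2.19, 2.22 and 1.48 FPKM in the mCherry libraries. All 3 H-Ras(G12V) libraries stood above all 3 mCherry libraries, the ratio of means was 7.40, and the log2 fold change was 2.37 ± 0.21 (SE). Flrt3, a leucine-rich repeat adhesion and guidance protein that binds latrophilin and Unc5 receptors, had 8.21, 5.81 and 7.53 FPKM in the H-Ras(G12V) libraries and 12.5, 13.3 and 14.5 FPKM in the mCherry libraries. The groups did not overlap and the log2 fold change was -0.83 ± 0.15 (SE). Leaving out mCherry library 3 gave 2.25 for Ecel1 and -0.78 for Flrt3.

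Sprr1a, a cornified envelope protein of skin that injured sensory neurons also make in large amounts, had 120, 130 and 35.5 FPKM in the H-Ras(G12V) libraries and 0.25, 0.25 and 0.13 FPKM in the mCherry libraries. It was plentiful in the H-Ras(G12V) libraries and barely detected in the mCherry libraries. H-Ras(G12V) library 3 was the lowest of its group and still far above every mCherry library. The log2 fold change was 6.11 ± 0.46 (SE), and 6.06 without mCherry library 3. Other small proline-rich genes stayed near nothing: Sprr1b, Sprr3 and Sprr2h were listed at 0 in all 6 libraries of the table and Sprr2a1 reached at most 0.01 FPKM. Summed keratinocyte markers, 9 of 10 of them listed in this table, were 6.56 to 12.04 FPKM in H-Ras(G12V) and 6.47 to 10.4 FPKM in mCherry libraries. Of these markers, Krt14 and Dsg1a were under 0.5 FPKM in every group, while Krt1, Krt10 and Lor were above 0.5 FPKM in every library. Krt5 had 0.23, 0.57 and 0.20 FPKM in the H-Ras(G12V) libraries and 0.03 FPKM in each mCherry library. Ivl, which encodes involucrin, had 1.21, 3.75 and 0.31 FPKM in the H-Ras(G12V) libraries and was listed at 0 in the mCherry libraries.

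Between H-Ras(G12V) and mCherry the libraries of 5 of the 9 genes did not overlap, 3 (Atf3, Ecel1 and Sprr1a) higher and 2 (Basp1 and Flrt3) lower with H-Ras(G12V). Over all 12724 genes tested, groups did not overlap for 23.7% in the higher and 16.6% in the lower direction. Since the 9 genes were picked from these values, nothing is read from their share. In the fit across all genes (limma on log2(FPKM + 1), two-sided, Benjamini-Hochberg adjusted p under 0.05) 10.3% were called higher and 6.67% lower. The median log2 fold change over all genes was 0.05 on FPKM as deposited, -0.07 with libraries scaled to a common sum and -0.01 by median-of-ratios scaling. The calls over all genes divided into 1312 higher and 849 lower as deposited, 856 and 1332 at a common sum, and 1046 and 1084 by median-of-ratios. Gap43 and Klf6 changed sign under both scalings and the other 7 genes kept theirs.

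**Figure D2:**
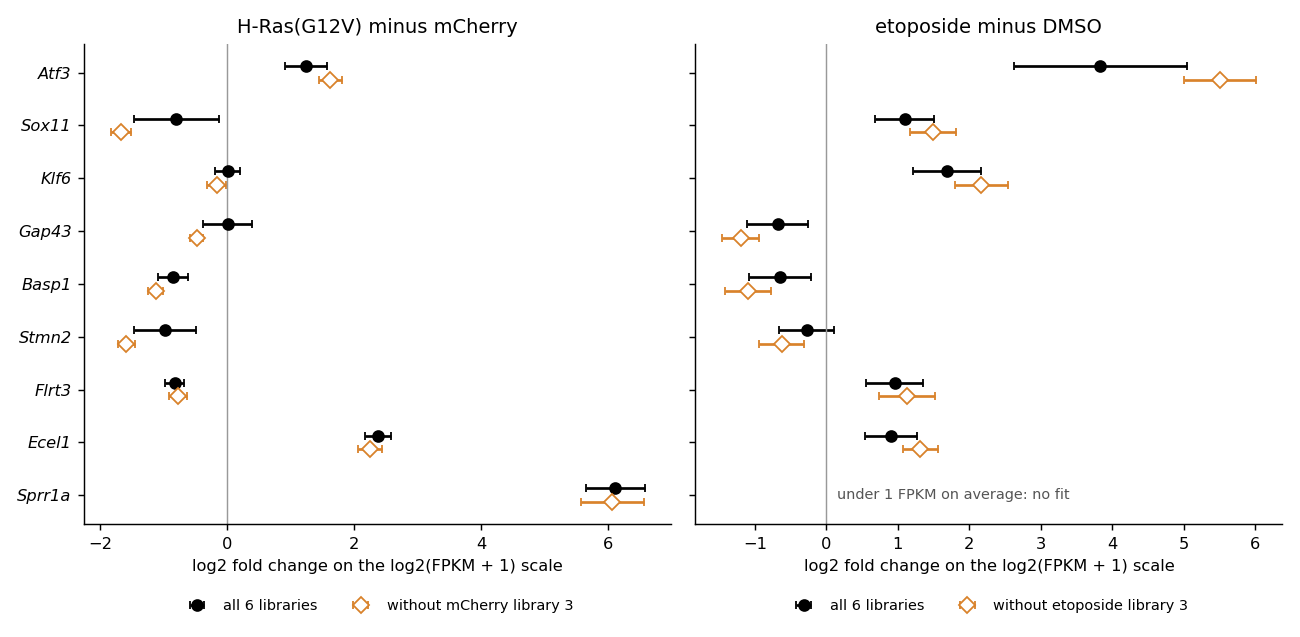
Log2 fold change on the log2(FPKM + 1) scale with its SE for each gene, H-Ras(G12V) minus mCherry on the left and etoposide minus DMSO on the right; filled circles use all 6 libraries and open diamonds leave out mCherry library 3 or etoposide library 3. Sprr1a and Ecel1 keep their size on the left, at 6.11 and 2.37 with all libraries, and Atf3 has the largest value on the right, 3.83 with all libraries and 5.50 without etoposide library 3.

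With etoposide the transcription factors were higher in libraries 1 and 2 than in every DMSO library. Flrt3, Ecel1 and Sprr1a, given below, shared this. Atf3 had 238, 175 and 5.33 FPKM in etoposide libraries 1, 2 and 3, against 2.08, 9.55 and 1.85 FPKM in DMSO libraries 1, 2 and 3. Etoposide library 3 lay within the DMSO range, and the mean of etoposide libraries 1 and 2 was 38.8 times its level. The log2 fold change was 3.83 ± 1.21 (SE), and 5.50 without etoposide library 3.

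Klf6 had 92.8, 56.4 and 26.2 FPKM in the etoposide libraries and 18.6, 21.3 and 8.99 FPKM in the DMSO libraries. The groups did not overlap, and the log2 fold change was 1.69 ± 0.48 (SE), or 2.17 without etoposide library 3. Sox11 had 17.2, 17.6 and 7.06 FPKM in the etoposide libraries and 6.80, 7.26 and 3.33 FPKM in the DMSO libraries. Etoposide library 3 lay between DMSO libraries 1 and 2, so the groups overlapped, with a log2 fold change of 1.10 ± 0.41 (SE), or 1.49 without etoposide library 3.

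The growth cone genes were low in etoposide libraries 1 and 2 and high in etoposide library 3. Gap43 had 187, 248 and 635 FPKM in the etoposide libraries and 538, 476 and 479 FPKM in the DMSO libraries. Basp1 had 187, 369 and 676 FPKM in the etoposide libraries and 609, 548 and 540 FPKM in the DMSO libraries. Stmn2 had 271, 517 and 774 FPKM in the etoposide libraries and 614, 541 and 581 FPKM in the DMSO libraries. For all 3 genes etoposide libraries 1 and 2 lay below every DMSO library and etoposide library 3 lay above every DMSO library. Log2 fold changes were -0.68 ± 0.43, -0.65 ± 0.44 and -0.28 ± 0.39 (SE) for Gap43, Basp1 and Stmn2, and -1.20, -1.10 and -0.63 without etoposide library 3. That of Stmn2 turned to 0.13 without etoposide library 1.

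Flrt3 had 19.4, 33.4 and 17.4 FPKM in the etoposide libraries and 15.6, 13.9 and 6.15 FPKM in the DMSO libraries, without overlap and with a log2 fold change of 0.95 ± 0.40 (SE). Ecel1 had 5.19, 3.86 and 1.35 FPKM in the etoposide libraries and 1.31, 1.08 and 1.24 FPKM in the DMSO libraries. Its groups were parted only by the small gap between etoposide library 3 and DMSO library 1, and the log2 fold change was 0.91 ± 0.37 (SE). Sprr1a had 2.16, 0.95 and 0.00 FPKM in the etoposide libraries and 0.00, 0.07 and 0.06 FPKM in the DMSO libraries, so it was detected mainly in etoposide libraries 1 and 2. Its average was under 1 FPKM in this table, and it was not fitted.

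Over all 12371 genes tested, 0% were called higher and 0.453% lower by limma, with 918 higher and 806 lower at an unadjusted p under 0.05. Groups did not overlap, higher with etoposide, for Klf6, Flrt3 and Ecel1, and lower for 0 of the 9 genes, where 7.64% of all tested genes did not overlap in the higher and 8.17% in the lower direction. Without etoposide library 3, 31.8% of 12403 tested genes were called, and without mCherry library 3 the H-Ras(G12V) comparison called 44.9% of 12735. With mCherry library 3 left out, the controls are 2 libraries that are very alike, so their spread, on which the p-values depend, is small.

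Set side by side, the models differed in which of the 9 genes stood out. Atf3 averaged 7.09 ± 1.56 FPKM in H-Ras(G12V) and 2.63 ± 1.79 in mCherry, and 140 ± 121 in etoposide and 4.49 ± 4.38 in DMSO (SD, n = 3 in each group, here and for the next 8 genes). Its order of means, high to low, was etoposide, H-Ras(G12V), DMSO, mCherry, and each neighbouring pair overlapped. Sprr1a averaged 95.3 ± 52.0 FPKM in H-Ras(G12V) and 0.210 ± 0.0693 in mCherry, and 1.04 ± 1.08 in etoposide and 0.0433 ± 0.0379 in DMSO. Ecel1 averaged 14.5 ± 3.81 FPKM in H-Ras(G12V) and 1.96 ± 0.419 in mCherry, and 3.47 ± 1.95 in etoposide and 1.21 ± 0.118 in DMSO. Both genes had the order H-Ras(G12V), etoposide, mCherry, DMSO, and among neighbours only etoposide and mCherry overlapped. For Sprr1a etoposide also overlapped with DMSO, since etoposide library 3 was listed at 0. Flrt3 averaged 7.18 ± 1.24 FPKM in H-Ras(G12V) and 13.4 ± 0.966 in mCherry, and 23.4 ± 8.71 in etoposide and 11.9 ± 5.05 in DMSO. Etoposide came first and clear of mCherry, and mCherry, DMSO and H-Ras(G12V) followed, each overlapping with its neighbour. The tables were normalised separately, so orders across the models are approximate.

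Klf6 averaged 23.7 ± 3.95 FPKM in H-Ras(G12V) and 23.8 ± 4.73 in mCherry, and 58.5 ± 33.4 in etoposide and 16.3 ± 6.45 in DMSO. Etoposide ranked highest, then mCherry, H-Ras(G12V) and DMSO, with every neighbouring pair overlapping. Sox11 averaged 11.1 ± 2.12 FPKM in H-Ras(G12V) and 26.6 ± 18.6 in mCherry, and 14.0 ± 5.97 in etoposide and 5.80 ± 2.15 in DMSO. Here mCherry ranked highest, then etoposide, H-Ras(G12V) and DMSO, and only H-Ras(G12V) and DMSO did not overlap. The 3 growth cone genes were the most abundant of the 9 in the mCherry and DMSO libraries, with means of 437 to 579 FPKM. Basp1 averaged 234 ± 26.6 FPKM in H-Ras(G12V) and 437 ± 126 in mCherry, and 411 ± 247 in etoposide and 566 ± 38.1 in DMSO. Stmn2 averaged 252 ± 37.4 FPKM in H-Ras(G12V) and 575 ± 314 in mCherry, and 520 ± 251 in etoposide and 579 ± 36.6 in DMSO. Both ranked DMSO, mCherry, etoposide, H-Ras(G12V), and among neighbours only DMSO and mCherry for Basp1 did not overlap. Gap43 averaged 497 ± 33.9 FPKM in H-Ras(G12V) and 546 ± 257 in mCherry, and 357 ± 243 in etoposide and 498 ± 35.0 in DMSO. It ranked mCherry, DMSO, H-Ras(G12V), etoposide, and all neighbours overlapped. When the etoposide effect was subtracted from the H-Ras(G12V) effect in a contrast over all 12 libraries, 3.76% of 12646 genes passed.

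The genes whose profiles were most like each of the 9 were taken by the smallest root-mean-square difference of log2(FPKM + 1) over the 12 libraries, each table centred on its control mean, among 9834 genes. For Atf3 they were Klf4, a Krüppel-like factor that restrains axon growth, at a difference of 0.44, and Tgif1, a homeobox repressor, at 0.45. Klf4 had 2.25, 2.34 and 2.26 FPKM in the H-Ras(G12V) libraries, 0.55, 0.78 and 2.32 in the mCherry libraries, 58.3, 60.3 and 1.08 in the etoposide libraries and 0.32, 0.96 and 0.19 in the DMSO libraries. For Sprr1a they were Lce1g, a late cornified envelope gene, at 0.66, and Gal, which encodes the neuropeptide galanin, at 0.74. Lce1g had 27.6, 55.9 and 15.5 FPKM in the H-Ras(G12V) libraries and was listed at 0 in the mCherry libraries. For Ecel1 they were Itga7, an integrin subunit, at 0.29, and the netrin receptor Unc5b at 0.34.

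For Basp1 the nearest were the microtubule end-binding gene Mapre2 (0.10) and the adaptor Grb14 (0.11), for Stmn2 Usp22 (0.11) and Mmp24 (0.17), and for Gap43 Nrbp2 (0.19) and the actin bundler Fscn1 (0.19). For Sox11 Fnbp1l (0.27) was the nearest, for Klf6 Nfatc3 (0.23) and Taf1d (0.24), and for Flrt3 Zbtb11 (0.19) and Fpgt (0.23). Libraries 3 of mCherry and etoposide weigh in these distances as much as any other library.

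Other genes of the injury response came from 6 lists of 123 genes, of which 112 could be tested in the H-Ras(G12V) model. There 24 rose and 14 fell, 33.9% in all, where 10.3% of all tested genes were called higher and 6.67% lower, and the median log2 fold change was 0.08 beside 0.05 for all genes. Those shares of all genes stand as the background of each list that follows. The lists were chosen with earlier results of these data known, so their shares and p-values are no independent support. The largest group of rises was among neuropeptides, cytokines, receptors and stress proteins, where 13 of 28 tested genes rose, 2 fell and the median was 1.07. Galanin, a peptide of injured sensory neurons, had 270, 283 and 104 FPKM in the H-Ras(G12V) libraries and 0.37, 0.13 and 0.90 FPKM in the mCherry libraries (Gal, log2 fold change 7.13 ± 0.40, limma adjusted p = 0.000837). The substance P precursor Tac1 had 191, 168 and 234 FPKM in the H-Ras(G12V) libraries and 6.80, 7.27 and 31.7 FPKM in the mCherry libraries (3.94 ± 0.53, limma adjusted p = 0.00645). The protease inhibitor Timp1 had 60.4, 91.8 and 36.7 FPKM in the H-Ras(G12V) libraries and 3.48, 3.25 and 9.10 FPKM in the mCherry libraries (3.38 ± 0.43, limma adjusted p = 0.00543). All 3 genes were higher in every H-Ras(G12V) library.

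Of the genes of this list that fell, the calcium channel subunit Cacna2d1 averaged 12.1 ± 2.12 FPKM in H-Ras(G12V) and 23.5 ± 4.11 FPKM in mCherry (SD, n = 3 each; limma adjusted p = 0.0190). The call of Cacna2d1 was lost without any 1 H-Ras(G12V) library or without mCherry library 2, with limma adjusted p of 0.0534 to 0.0664.

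Of 16 injury-response transcription factors 5 rose and 0 fell, with a median of 0.54, and 1 rose under either other scaling. Myc had 28.2, 32.6 and 29.6 FPKM in the H-Ras(G12V) libraries and 14.3, 14.0 and 10.6 FPKM in the mCherry libraries (limma adjusted p = 0.00521). The immediate early gene Egr1 had 39.7, 55.5 and 51.0 FPKM in the H-Ras(G12V) libraries and 2.86, 3.75 and 26.7 FPKM in the mCherry libraries (limma adjusted p = 0.0443). Cebpd averaged 20.1 ± 5.79 FPKM in H-Ras(G12V) and 6.56 ± 4.96 FPKM in mCherry (SD, n = 3 each; limma adjusted p = 0.0452). Egr1 and Cebpd passed without mCherry library 3 but not with any other library left out, when limma adjusted p was 0.115 to 0.137 for Egr1 and 0.0972 to 0.145 for Cebpd. Jun, named after its values were seen, the AP-1 factor most tied to regrowth, was above every mCherry library in every H-Ras(G12V) library, with 46.2, 53.2 and 45.1 FPKM against 23.6, 24.0 and 40.3 FPKM in mCherry, and did not pass.

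Of 22 genes of the growth cone and axonal cytoskeleton 0 rose and 3 fell, with a median of -0.73. Those that fell were the microtubule protein Map1b (54.4 ± 10.0 FPKM in H-Ras(G12V) and 169 ± 82.2 in mCherry; limma adjusted p = 0.0493), the adhesion molecule Chl1 (39.7 ± 4.28 in H-Ras(G12V) and 105 ± 44.9 in mCherry; limma adjusted p = 0.0454) and the actin regulator Enah (13.6 ± 1.47 in H-Ras(G12V) and 19.7 ± 1.87 in mCherry; limma adjusted p = 0.0433). With any library but mCherry library 3 left out these 3 calls were lost, at limma adjusted p of 0.111 to 0.156 for Map1b, 0.12 to 0.14 for Chl1 and 0.0818 to 0.171 for Enah. Without mCherry library 3, 20 of the 22 fell and 0 rose, in a fit that called 44.9% of all tested genes. Neuronal beta-tubulin Tubb3, also named after its values were seen, depended on that library and had 183, 247 and 127 FPKM in the H-Ras(G12V) libraries and 704, 737 and 110 FPKM in the mCherry libraries.

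In the DLK, JNK and axon degeneration list 1 of 16 genes rose and 3 fell, with a median of -0.33. The kinases Map3k12, which encodes DLK, and Mapk10, which encodes JNK3, fell to 14.7 ± 1.15 and 24.5 ± 1.33 FPKM in H-Ras(G12V), against 23.1 ± 1.60 and 41.4 ± 2.79 FPKM in mCherry (SD, n = 3 each; limma adjusted p = 0.0174 and 0.00915). The pro-apoptotic gene Hrk, known as an injury and trophic-factor withdrawal gene, fell to 1.38 ± 0.497 FPKM in H-Ras(G12V), against 5.55 ± 1.09 FPKM in mCherry (limma adjusted p = 0.00816). Without H-Ras(G12V) library 1 or 3 or mCherry library 1 or 2 the call of Map3k12 was lost, at limma adjusted p of 0.0773 to 0.0834.

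Among 16 brakes on regrowth 2 rose and 4 fell, with a median of -0.02. Socs3, the feedback inhibitor of cytokine and STAT3 signalling, rose to 12.1 ± 1.65 FPKM in H-Ras(G12V), against 2.27 ± 0.412 FPKM in mCherry (limma adjusted p = 0.00153). The myelin inhibitor Mag had 17.7, 12.9 and 9.24 FPKM in the H-Ras(G12V) libraries and 2.88, 2.23 and 5.79 FPKM in the mCherry libraries (limma adjusted p = 0.0192). Mag is also an oligodendrocyte marker, and summed markers of that lineage were 841 to 1030 FPKM in H-Ras(G12V) and 206 to 708 FPKM in mCherry libraries. The Nogo receptor Rtn4r and its partner Lingo1 fell to 7.62 ± 1.94 and 33.4 ± 8.47 FPKM in H-Ras(G12V), against 14.8 ± 1.90 and 62.7 ± 7.56 FPKM in mCherry (limma adjusted p = 0.0236 and 0.0228), and Psd, a guanine nucleotide exchange factor, fell to 35.4 ± 9.44 FPKM, against 64.2 ± 8.17 FPKM in mCherry (limma adjusted p = 0.0303). Leaving out H-Ras(G12V) library 1, mCherry library 1 or mCherry library 2 ended the calls of Mag, Rtn4r, Lingo1 and Psd, as did H-Ras(G12V) library 2 for Mag and 3 for the others, with limma adjusted p of 0.0595 to 0.075 for Mag, 0.056 to 0.0934 for Rtn4r, 0.0611 to 0.0915 for Lingo1 and 0.0995 to 0.115 for Psd.

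Of 14 tested relatives and binding partners of the 9 genes 3 rose and 2 fell, with a median of 0.20, and under either other scaling 2 rose and 3 fell. Unc5b, a receptor of netrin and of Flrt proteins, had 8.23, 11.6 and 9.48 FPKM in the H-Ras(G12V) libraries and 1.12, 1.03 and 1.22 FPKM in the mCherry libraries (log2 fold change 2.33 ± 0.15, limma adjusted p = 0.000950). Unc5b was thus high in the H-Ras(G12V) libraries, where Flrt3 was low, but with 11.3, 8.68 and 1.72 FPKM in the etoposide libraries and 1.96, 4.38 and 1.67 FPKM in the DMSO libraries it was also high in etoposide libraries 1 and 2, where Flrt3 was high. Flrt2 fell to 5.13 ± 1.03 FPKM in H-Ras(G12V), against 8.42 ± 0.891 FPKM in mCherry (limma adjusted p = 0.0433). The endothelin-converting enzyme Ece1, of the peptidase family of Ecel1, rose to 15.3 ± 1.39 FPKM in H-Ras(G12V), against 7.56 ± 1.78 FPKM in mCherry (limma adjusted p = 0.0147). Of the ATF family Atf5 rose to 32.9 ± 4.23 FPKM in H-Ras(G12V), against 21.8 ± 3.55 FPKM in mCherry (limma adjusted p = 0.0474), and Atf2 fell to 21.6 ± 3.46 FPKM in H-Ras(G12V), against 37.4 ± 1.75 FPKM in mCherry (limma adjusted p = 0.0154). Flrt2, Ece1 and Atf5 passed without mCherry library 3 but with no other library left out, when limma adjusted p was 0.0735 to 0.124 for Flrt2, 0.054 to 0.0605 for Ece1 and 0.0976 to 0.165 for Atf5. Atf2 lost its call without H-Ras(G12V) library 3 or mCherry library 1 or 2, at limma adjusted p of 0.0639 to 0.0666.

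Over the 6 lists, 24 genes rose and 14 fell on FPKM as deposited. Calls stood at 18 higher and 19 lower at a common sum and at 18 and 18 by median-of-ratios. Calls over all genes, 1312 higher and 849 lower as deposited, also shifted towards falls under both scalings, as given above. The balance of rises and falls is therefore not read as a trait of the lists. Without mCherry library 3, 44 of 113 genes rose and 43 fell, again beside 44.9% of all tested genes called. Gal, Tac1, Timp1, Unc5b and Hrk passed in every alternative run, each with 15 or 16 of them.

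**Figure D3:**
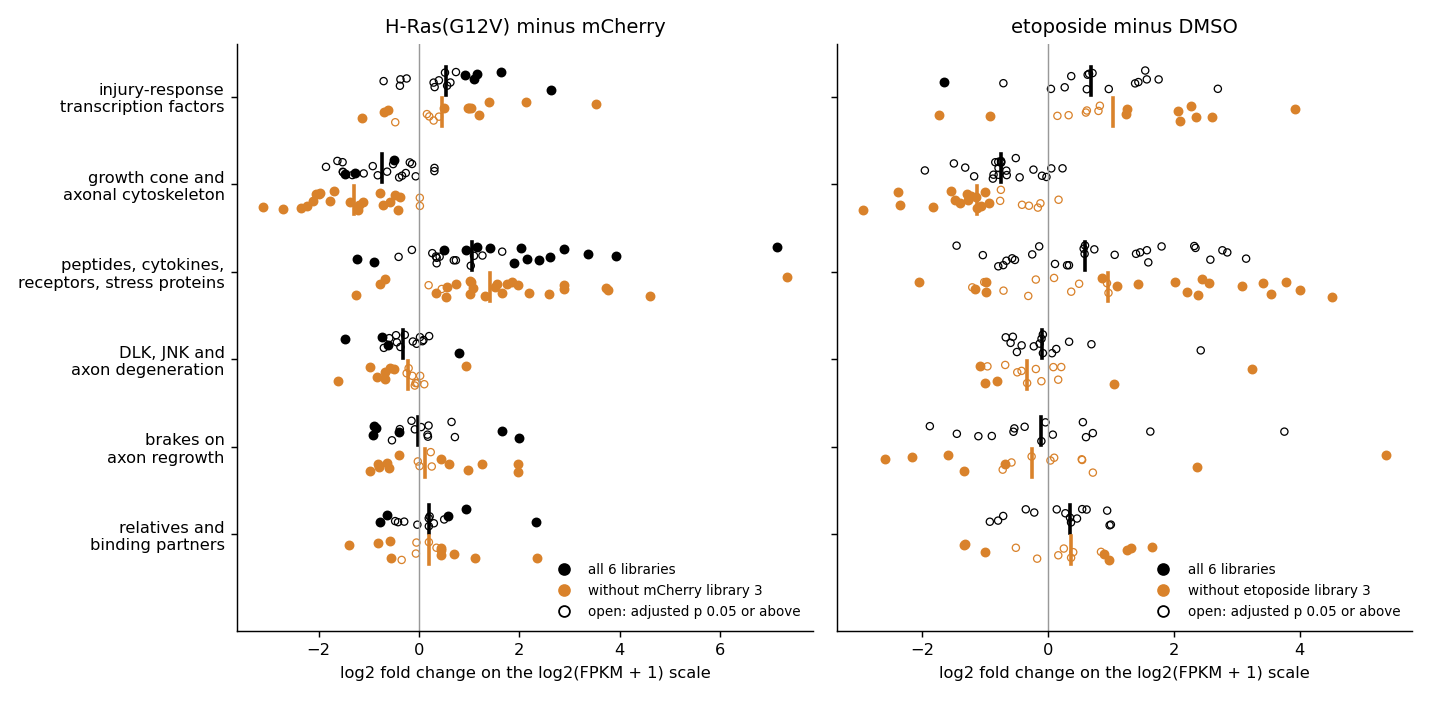
Log2 fold change on the log2(FPKM + 1) scale of every tested gene of 6 axon injury lists, H-Ras(G12V) minus mCherry on the left and etoposide minus DMSO on the right, with a bar at each list's median; black points use all 6 libraries, orange points leave out mCherry library 3 or etoposide library 3, and open points have an adjusted p of 0.05 or above. Growth cone genes lie mostly left of 0 in both models, and filled black points are nearly absent on the right, where 1 of 111 genes passed.

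With etoposide 111 list genes could be tested, and 0 rose and 1 fell, with 22 higher and 13 lower at an unadjusted p under 0.05 and a smallest adjusted p of 0.223 among the higher ones (limma). List medians were 0.68 for transcription factors, -0.75 for growth cone genes, 0.58 for peptides, cytokines, receptors and stress proteins, -0.10 for the DLK and JNK list, -0.11 for the brakes and 0.35 for the relatives, beside 0.09 for all tested genes.

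Without etoposide library 3, 31 list genes rose and 32 fell, where 31.8% of all tested genes were called in either direction. In that fit 8 of 16 transcription factors rose and 2 fell, 14 of 28 peptides, cytokines, receptors and stress proteins rose and 4 fell, and 15 of 22 growth cone genes fell and 0 rose. Examples named after their values were seen are the stress factor Ddit3, with 455, 557 and 39.1 FPKM in the etoposide libraries and 26.0, 31.6 and 41.6 FPKM in the DMSO libraries, and alpha-tubulin Tuba1a, with 418, 381 and 3096 FPKM in the etoposide libraries and 2816, 2809 and 3673 FPKM in the DMSO libraries. Jun likewise had 252, 230 and 51.8 FPKM in the etoposide libraries and 42.0, 56.3 and 49.4 FPKM in the DMSO libraries. In each of these 3 genes etoposide library 3 lay within the DMSO range. Tuba1a has close paralogs, so its level is uncertain.

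Markers of cell types moved with the same groups. Summed FPKM of 9 neuron markers was 913 to 1054 in H-Ras(G12V) and 1325 to 1407 in mCherry libraries, and 333, 740 and 1448 in etoposide libraries 1, 2 and 3 against 948 to 1324 in DMSO libraries. Within this list Nefl and Nefm, which encode neurofilament subunits, were higher in every H-Ras(G12V) library than in every mCherry library. Nefl had 185, 203 and 148 FPKM in the H-Ras(G12V) libraries and 29.6, 25.7 and 144 FPKM in the mCherry libraries, and Nefm had 125, 142 and 98.01 FPKM in the H-Ras(G12V) libraries and 19.6, 16.1 and 63.4 FPKM in the mCherry libraries. The growth cone genes followed a like order in the etoposide libraries, lowest in library 1 and highest in library 3. In mCherry library 3 the neuron sum was 1406, within the range of mCherry libraries 1 and 2, but its members were not level: Tubb3 was at 0.153 and Elavl3 at 0.427 of the mean of mCherry libraries 1 and 2, and Snap25 at 3.36, Nefl at 5.21 and Nefm at 3.55 times it. Gap43, Stmn2 and Sox11 were low in that library. Excitatory cortical markers summed to 299 to 382 in H-Ras(G12V) libraries and to 249, 268 and 801 in mCherry libraries 1, 2 and 3.

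Astrocyte markers summed to 2536 to 3680 in H-Ras(G12V) and to 1171, 1176 and 3120 in mCherry libraries 1, 2 and 3. Gfap was the largest part of the sum in every H-Ras(G12V) library. Only Aldh1l1 was higher in every H-Ras(G12V) library than in every mCherry library, and the other astrocyte markers overlapped. In all 3 etoposide libraries, library 3 included, the astrocyte sum of 609 to 946 lay below the 1016 to 1583 of the DMSO libraries. Within this list Aldh1l1, Slc1a3 and Aldoc were lower in every etoposide library than in every DMSO library. Gja1 was higher in etoposide libraries 1 and 2, at 378 and 287 FPKM, against 59.0 to 76.8 FPKM in DMSO libraries. Gfap, Aqp4, Slc1a2 and S100b overlapped. Neural progenitor markers summed to 1648 to 2076 in H-Ras(G12V) and 580 to 715 in mCherry libraries, and to 864, 471 and 230 in etoposide libraries 1, 2 and 3 against 250 to 306 in DMSO libraries. Vim made up most of this sum, with 752, 382 and 186 FPKM in the etoposide libraries and 149 to 214 FPKM in the DMSO libraries. Nes too was high in etoposide libraries 1 and 2, and Sox2 overlapped. Hes5, Top2a, Mki67 and Pax6 were lower in every etoposide library than in every DMSO library. Fibroblast, meningeal and mural markers summed to 37.6 to 41.0 in H-Ras(G12V) and 164 to 266 in mCherry libraries. Among them Rgs5 overlapped, at 17.8 to 29.1 FPKM in H-Ras(G12V) and 10.5 to 28.3 FPKM in mCherry libraries. The other markers of that list were lower in every H-Ras(G12V) library than in every mCherry library. Oligodendrocyte lineage markers summed to 64.8 to 209 in etoposide and 509 to 875 in DMSO libraries, and Sox10 was under 0.5 FPKM in every etoposide library, library 3 included. Of 10 peripheral sensory neuron markers 8 were under 0.5 FPKM in every library, Isl1, Pou4f1 and Scn10a among them, although Sprr1a, Gal and Ecel1 are best known from such neurons. The part of cell type make-up in the levels of the 9 genes was not tested.

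**Figure D4:**
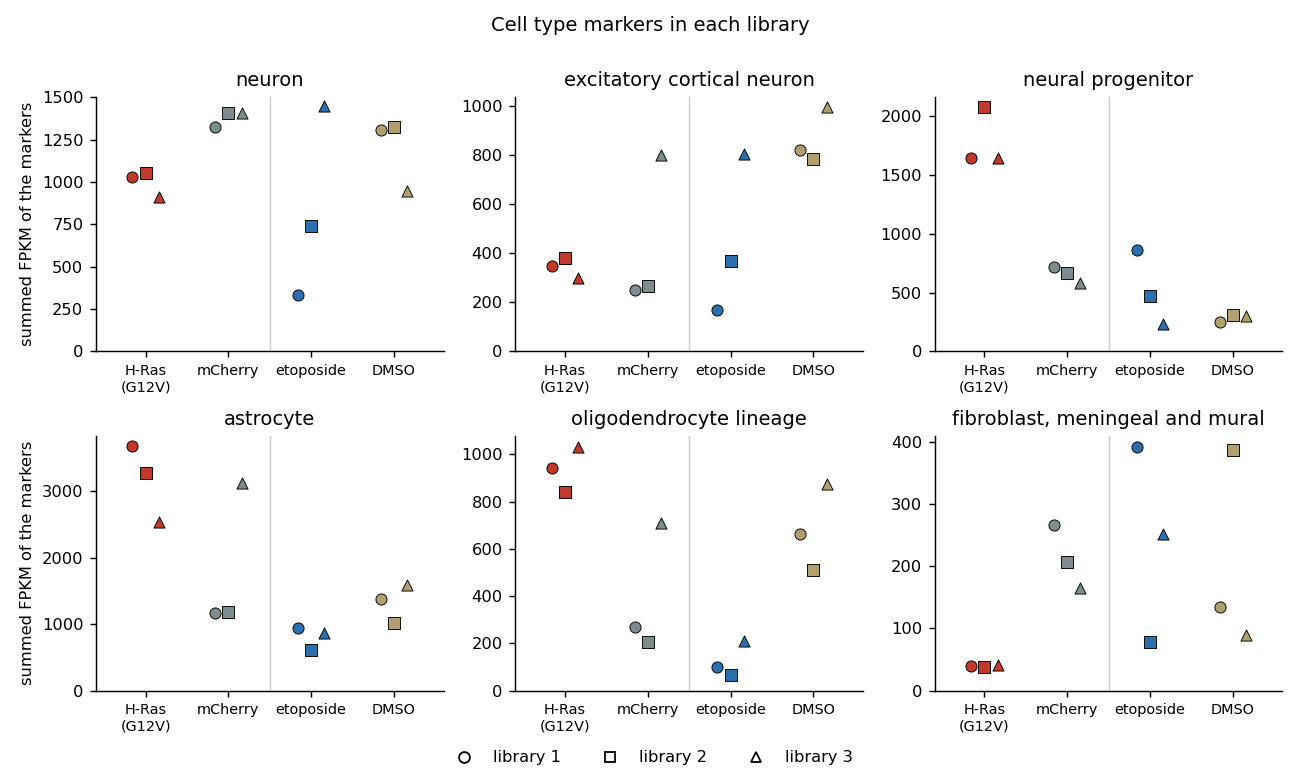
Summed FPKM of the markers of 6 cell types in each of the 12 libraries, by group, with linear axes that start at 0 and differ between panels. The etoposide libraries spread from 333 to 1448 for neuron markers, and mCherry library 3 lies at 801 for excitatory cortical markers, above mCherry libraries 1 and 2.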

How the data were processed

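Gene expression was measured by RNA-seq in 12 libraries of primary mouse neurons. The deposited tables, 1 per model, hold FPKM values to 2 decimals, per the file headers. Per the submitters' processing notes, the tools were HISAT, Bowtie2 and RSEM on build mm9, in roles not stated, and further scaling by the authors is not stated. Strand use in counting is not stated either. The 2 tables were taken to be normalised separately, so every fit used the 6 libraries of its table alone. The 9 genes, the 6 pathway lists and the 12 marker lists were chosen with earlier results of these data known, and the members' values carry no test.

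FPKM was analysed as log2(FPKM + 1) with limma 3.58.1 in R 4.3.3 (lmFit, then eBayes with an intensity trend). Genes had to average at least 1 FPKM in their table, and two-sided p-values were adjusted by Benjamini-Hochberg over all tested genes of a table, with a threshold of 0.05. The fit was tested on simulated data. The contrast between the models used genes listed in both tables. Group means are given with the SD over 3 libraries and log2 fold changes with limma's SE. Pathway genes are named by rule: up to 3 called genes per list, direction and model with the largest change, among those averaging at least 5 FPKM in the higher group, and the 2 nearest profiles per member. A few genes that this rule names are not reported here. Alternatives were other pseudocounts, filters and scalings, no trend, a single fit, a replicate block, averaging mCherry libraries 1 and 2, and leaving out each library. Replicate numbers were not used to pair the libraries, since not every same-number correlation of deviations exceeded 0.1 in either model. With so few libraries these correlations cannot show whether a number marks a shared culture, so the replicate block was run as an alternative.

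Depth was estimated from the value that 1 fragment adds at low levels, over genes with 1 annotated transcript whose lengths came from another build, and is approximate. With counts rebuilt from it, libraries of a group differed by more than sampling noise, with chi-square per degree of freedom of 3.08 for mCherry libraries 1 and 2 and 14.5 or more for other pairs, so all 12 were kept. Promoter windows came from RefSeq, build GRCm38.p6, matched by symbol.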

Additional observations from a re-analysis of the deposited data

Results flagged for a closer look

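For Sox11 and Flrt3 the libraries of the 2 models moved opposite ways. Every H-Ras(G12V) library lay below the mCherry mean and every etoposide library above the DMSO mean. The difference between the H-Ras(G12V) and etoposide effects, in log2 units, was -1.90 for Sox11 and -1.78 for Flrt3. No test of this difference is given, since both genes were chosen from these values. For Sox11 the mCherry mean rests on libraries 1 and 2, and mCherry library 3, at 5.30 FPKM, lay below every H-Ras(G12V) library.

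The H-Ras(G12V) effect differed from the etoposide effect in the contrast over 12 libraries for 4 pathway genes named above, Gal, Tac1, Mag and Itga7. The difference in log2 units was 5.56 for Gal (limma adjusted p = 0.00323), 3.83 for Tac1 (limma adjusted p = 0.00506), 2.37 for Mag (limma adjusted p = 0.0212) and 2.04 for Itga7 (limma adjusted p = 0.0290). Itga7 was named for its likeness to Ecel1 over these same libraries, and Gal was also among the nearest profiles of Sprr1a. The lists that hold these 4 genes were chosen with earlier results of these data known, so none of these values is independent support. Itga7 was higher in all 3 H-Ras(G12V) libraries than in any mCherry library. Gal and Tac1 were higher in all 3 H-Ras(G12V) libraries than in any mCherry library, and in etoposide their libraries overlapped with DMSO. For Gal only etoposide library 3 overlapped, with 8.87, 2.51 and 0.07 FPKM in the etoposide libraries and 0.06 to 0.25 FPKM in the DMSO libraries. Without etoposide library 3 the etoposide log2 fold change of Gal was 2.39 ± 0.38 (SE, limma adjusted p = 0.00202), in a fit that called 31.8% of all tested genes. Mag averaged 0.0233 ± 0.0252 FPKM in etoposide and 0.820 ± 0.953 FPKM in DMSO libraries (SD, n = 3 each), and was higher in all 3 H-Ras(G12V) libraries. With an average under 1 FPKM in the etoposide table, Mag was not fitted there. It entered the contrast through its H-Ras(G12V) table levels, and the etoposide side of its difference is read near the floor.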

How the results depend on the processing

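No pathway gene named for its change turned direction under the alternatives run. With H-Ras(G12V) 2161 genes were called, against 496 in a single fit of the 12 libraries, 639 with mCherry libraries 1 and 2 averaged and 496 to 5716 without each library in turn, the highest without mCherry library 3. List genes numbered 38, against 24 with no filter, 14 in the single fit, 15 with mCherry libraries 1 and 2 averaged and 14 to 87 without each library. With etoposide 56 genes were called, against 22 at a mean of at least 5 FPKM, 194 in the single fit, 12 with the replicate block and 4 to 3938 without each library, the highest without etoposide library 3. The 1 list gene became 0 with a pseudocount of 0.5, no filter, a mean of at least 5 FPKM, a common sum or the replicate block, and 0 to 63 without each library. The contrast of the models called 475 genes, against 256 at a mean of at least 5 FPKM, 283 with mCherry libraries 1 and 2 averaged and 277 to 2868 without each library. With the replicate block the H-Ras(G12V) comparison called 1681 genes and 36 list genes, and the contrast 451. Same-number correlations of deviations were -0.04, 0.03 and 0.12 in the H-Ras(G12V) model and -0.26, -0.17 and -0.15 in the etoposide model. The cause of these shifts was not tested, beyond the fewer genes or libraries some settings use.

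Myc, Mapk10 and Socs3 lost their call in the single fit alone, and the other such genes outside those that passed throughout lost it in 5 to 12 alternatives. With 3 libraries per group and 2 decimals in the tables, low genes such as Sprr1a in mCherry, etoposide and DMSO libraries are read from few fragments.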
